A study of Mus musculus with 9 samples.

Results

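The insulin-like growth factor (IGF) genes described here are 10 genes of the mouse: the ligands Igf1 and Igf2, the receptors Igf1r and Igf2r, and the binding proteins Igfbp2, Igfbp3, Igfbp4, Igfbp5, Igfbp6 and Igfbp7. They were listed by name, with earlier results of these data known, and all 10 were among the 18492 genes with enough reads to be tested, of 49315 in the count table. RNA was sequenced from whole brains of wild-type C57BL/6J males that were young (3 months, 5 libraries) or old (33 months, 4 libraries), to see how transcript levels differ with age. Libraries were poly(A) selected, 1 brain each, and held 14229259 to 21150439 counted reads. The brains received no treatment and carried no transgene, and a single strain and sex limits the comparison to those animals. Markers of neurons, astrocytes, oligodendrocytes, microglia and endothelial cells were detected in all 9 libraries.

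IGF1 and IGF2 are secreted growth factors that signal through the receptor tyrosine kinase IGF1R, whereas IGF2R binds IGF2 at the cell surface, carries it to lysosomes and also sorts lysosomal enzymes. Binding proteins hold the ligands outside cells and set how much reaches the receptors. In the adult brain IGF2 is known as a product of the choroid plexus and leptomeninges, and IGFBP7, which binds IGFs weakly, is known from blood vessels.

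In old brains 4 of the 10 genes rose: the receptor Igf1r and the binding proteins Igfbp4, Igfbp6 and Igfbp7. None fell, and neither ligand passed the test. Calls were made with edgeR's quasi-likelihood test at a Benjamini-Hochberg adjusted p under 0.05, which called 11.0% of all genes tested, 6.20% as higher and 4.83% as lower. The rises were small: none of the 10 passed the additional requirement of an absolute log2 fold change over 0.58, which 2.68% of all genes met. The fold change was above 0 in 9 of 10 genes with a median of 0.17 (log2), against a median of 0.00 over all genes tested, for which 9243 were above 0. Old and young libraries did not overlap, with old higher, for 3 of the 10 genes (Igf2r, Igfbp6 and Igfbp7), as for 6.50% of all genes. Igfbp4 and Igfbp5 lay on either side of the threshold: edgeR's default estimation called Igfbp4 and not Igfbp5, and its robust estimation called Igfbp5 and not Igfbp4, with 4 genes called either way. The default was run first, robust estimation was then taken as the main test, and the default was restored, all with the values of these genes known.

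Because 4 genes were called, the 250 bases before their RefSeq start sites (GRCm38.p6) are shown, 5′ to 3′ on the strand of the gene. Capitals mark the GC box GGGCGG or its reverse complement CCGCCC, and the TATA box TATAAA or its reverse complement TTTATA. The windows are chr7:67952007-67952256 (plus strand) for Igf1r, chr11:99040994-99041243 (plus) for Igfbp4, chr15:102143936-102144185 (plus) for Igfbp6 and chr5:77408046-77408295 (minus) for Igfbp7.
Igf1r: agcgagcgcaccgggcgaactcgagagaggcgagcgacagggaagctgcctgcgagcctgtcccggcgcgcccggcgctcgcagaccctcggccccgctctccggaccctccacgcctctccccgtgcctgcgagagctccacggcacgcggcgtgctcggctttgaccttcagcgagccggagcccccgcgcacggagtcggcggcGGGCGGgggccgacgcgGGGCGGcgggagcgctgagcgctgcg
Igfbp4: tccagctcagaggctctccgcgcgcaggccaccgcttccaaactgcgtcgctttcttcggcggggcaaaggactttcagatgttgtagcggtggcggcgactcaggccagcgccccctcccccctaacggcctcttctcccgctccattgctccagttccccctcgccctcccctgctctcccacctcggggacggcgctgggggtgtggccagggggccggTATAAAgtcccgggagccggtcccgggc
Igfbp6: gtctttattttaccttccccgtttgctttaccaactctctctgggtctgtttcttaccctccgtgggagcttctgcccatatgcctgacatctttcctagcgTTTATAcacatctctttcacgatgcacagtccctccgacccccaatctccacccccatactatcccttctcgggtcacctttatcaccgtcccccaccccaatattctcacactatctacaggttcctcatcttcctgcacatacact
Igfbp7: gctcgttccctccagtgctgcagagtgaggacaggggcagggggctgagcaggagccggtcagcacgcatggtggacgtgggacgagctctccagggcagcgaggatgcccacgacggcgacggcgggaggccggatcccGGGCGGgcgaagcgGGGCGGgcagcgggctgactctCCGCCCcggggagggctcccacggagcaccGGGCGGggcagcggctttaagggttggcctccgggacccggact

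The windows of Igf1r, Igfbp7 and Igfbp4 were rich in CpG dinucleotides and that of Igfbp6 was not. Igf1r held 42, more than 99% of the 32851 mouse windows of this length, Igfbp7 held 26 (more than 90%), Igfbp4 held 22 (more than 85%) and Igfbp6 held 7 (more than 53%), where the median over all windows was 6. Genes not called ranged as widely: Igfbp3 held 32 (more than 95%) and Igf2r 27 (more than 91%), whereas Igfbp5 held 10 (more than 62%) and Igf1 5 (more than 44%). GC boxes were found in Igfbp7 (4) and Igf1r (2), and in 32.7% of all windows on either strand. Of the genes not called, Igf2r (3), Igfbp2 (3 in 1 of its windows) and Igf2 held GC boxes, and Igf1, Igfbp3 and Igfbp5 held none. The Igfbp4 window carried TATAAA beginning 28 bases before the start, and the Igfbp6 window carried the reverse complement, as 12.4% of all windows carry either. Neither CACGTG (6.02% of all windows) nor the forkhead letters TGTTTAC or GTAAACA (3.17%) occurred in the windows of the 4 called genes. A match is a description of letters only.

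Per length of exon, 4 binding proteins (Igfbp5, Igfbp2, Igfbp7 and Igfbp6) had the highest mean levels of the 10 transcripts, whereas Igfbp3 was near the bottom of the order. Igfbp5 led with 33.4 ± 3.00 CPM per kb of exon (CPM, reads scaled to library size; SD, n = 9 libraries), above the next gene in 9 of 9 libraries and without overlap. Igfbp2 followed at 23.7 ± 2.51, then Igfbp7 at 19.5 ± 4.53, Igfbp6 at 19.5 ± 2.06 and Igf2 at 17.3 ± 1.76, whose ranges overlapped from each neighbour to the next. Igfbp2 was above Igfbp7 in 7 of 9 libraries and Igfbp6 above Igf2 in 8 of 9. Igfbp7 was above Igfbp6 in only 3 of 9, so the levels of Igfbp7 and Igfbp6 were not separated. Igfbp4 (11.3 ± 1.52), Igf1r (7.47 ± 0.667), Igf2r (6.45 ± 0.284), Igfbp3 (3.50 ± 0.701) and Igf1 (1.13 ± 0.202) completed the order. Each of these was above the one after it in all 9 libraries, although the ranges of Igf1r and Igf2r overlapped. The order was the same in the deposited TPM values. Those divide counts of the same libraries by gene length and library total, so the agreement is no independent check. Igf2 was 12.2 to 20.3 times as abundant per length as Igf1 in young libraries and 12.9 to 17.8 times in old ones, so the ages overlapped. Of the 5723 exon bases of Igf2, 3596 are shared with the same-strand gene Gm49394. Its level, its place in the order and this ratio are uncertain to that extent.

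**Figure D1:**
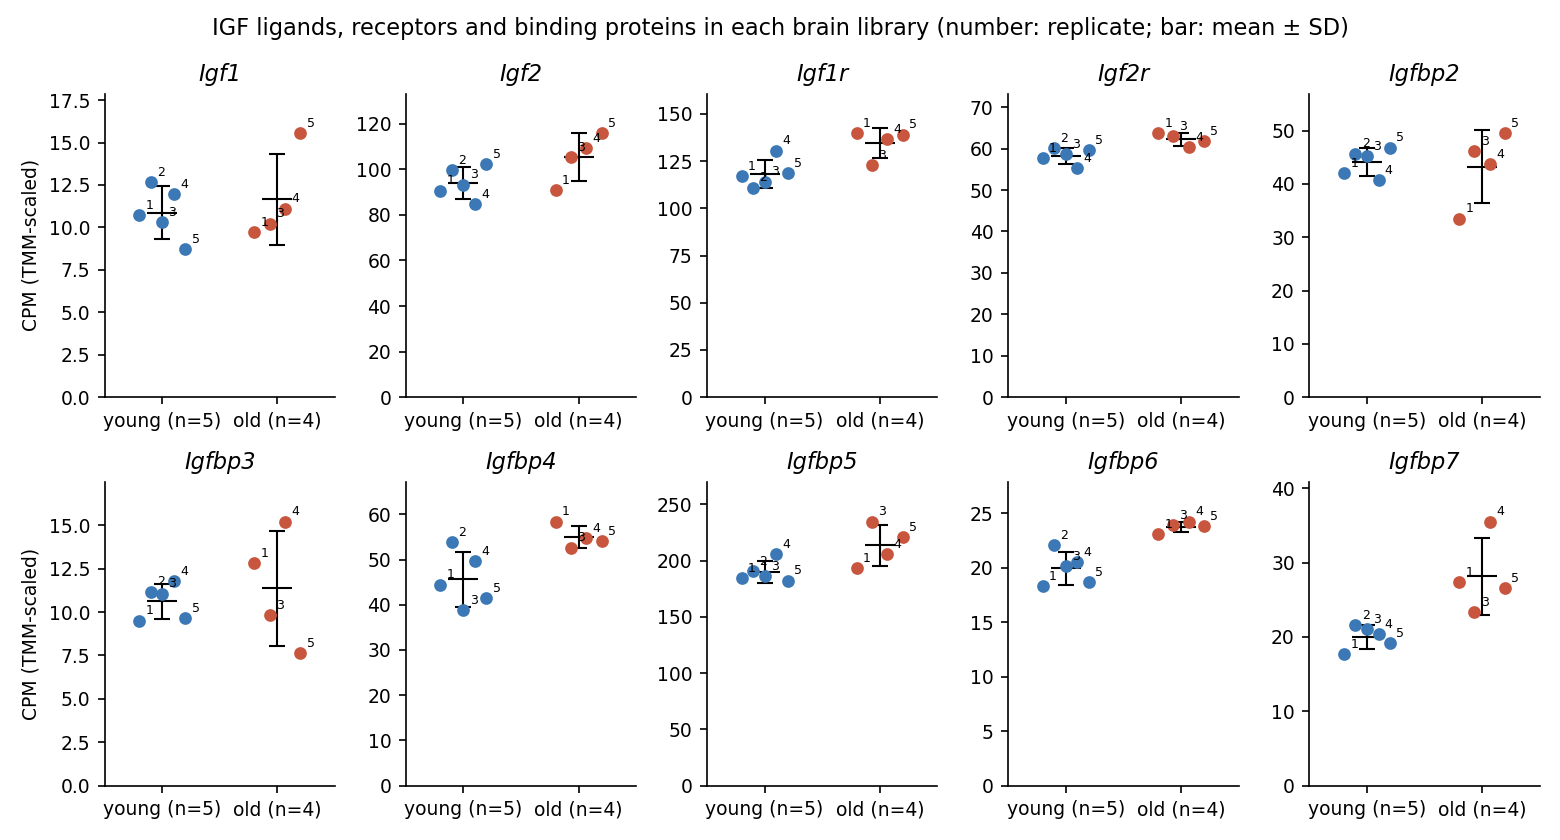
CPM (scaled by trimmed mean of M values) of each of the 10 genes in 5 young and 4 old brain libraries, each panel with its own axis from 0. Points are libraries with their replicate number, and bars are mean ± SD; the old libraries lie above all young ones for Igf2r, Igfbp6 and Igfbp7.

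Of the ligands, Igf1 (chromosome 10: 87858265 to 87937042, GRCm38) encodes the main growth-promoting IGF after birth. Young replicates 1 to 5 held 10.7, 12.7, 10.3, 11.98 and 8.71 CPM of Igf1, and old replicates 1, 3, 4 and 5 held 9.72, 10.2, 11.1 and 15.6 CPM. The ages overlapped, and the highest library was old replicate 5. The log2 fold change was 0.09 ± 0.14 (SE; edgeR adjusted p = 0.715), with a 95% interval of -0.20 to 0.39, and was -0.08 without old replicate 5. Summed CPM of 5 olfactory bulb markers (Cdhr1, Doc2g, Eomes, Tbx21 and Th) was 23.7 to 80.2 in young and 23.0 to 160 in old libraries, with young replicate 2 and old replicate 5 highest at each age, the same libraries in which Igf1 was highest. None of the 5 markers passed the age test, and Tbx21 was at 0 in at least 1 library. Young replicate 4, at 11.98 CPM of Igf1, held only 25.1 CPM of these markers. The 5 interneuron markers (Gad1, Gad2, Pvalb, Sst and Vip) summed to 862 to 946 CPM in young and 873 to 1140 CPM in old libraries. They too were highest in young replicate 2 and old replicate 5. The 8 homeostatic microglia markers summed to 217 to 297 CPM in young and 287 to 345 CPM in old libraries, highest in young replicate 4 and old replicate 5. Leaving out young replicate 2 and old replicate 5 gave a log2 fold change of -0.02 for Igf1 (edgeR adjusted p = 0.957). The 5 olfactory bulb markers as a covariate gave -0.06 (edgeR adjusted p = 0.823). Both fits were added after these values were seen, and removing the highest library of an age lowers the mean of that age whatever the reason. The part of olfactory bulb, interneuron or microglia RNA in the Igf1 level was not tested.

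Igf2 (chromosome 7: 142650766 to 142666816) is an imprinted gene for the second ligand. Young replicates 1 to 5 held 90.6, 99.5, 93.3, 84.7 and 102 CPM, and old replicates 1, 3, 4 and 5 held 91.0, 105, 109 and 116 CPM of Igf2. Old replicates 3, 4 and 5 lay above all young libraries, and old replicate 1 lay among them. The log2 fold change was 0.16 ± 0.07 (edgeR adjusted p = 0.136), and without old replicate 1 it was 0.23 and passed (edgeR adjusted p = 0.0268). That library was lowest of all in the summed CPM of 10 leptomeningeal and perivascular fibroblast markers, 94.0 against 121 to 193 in the other 8 libraries. Igf2 itself was lower in young replicates 1 and 4, and the highest fibroblast sum was in old replicate 4, not in old replicate 5. The 9 choroid plexus markers summed to 563 to 730 CPM in young libraries and to 643, 706, 773 and 459 CPM in old replicates 1, 3, 4 and 5. The lowest sum was in the library with the most Igf2, and none of these markers was called. Most of the sum was Ttr, with a mean of 544 CPM in young and 561 CPM in old libraries. Of the fibroblast markers, Fmod rose, Col3a1 fell and 8 were not called. In a bulk sample, fewer cells of a type and less RNA per cell cannot be told apart. The part of these cell types in the Igf2 level was not tested. Exons of Igf2 share 3596 bases with the same-strand gene Gm49394 and 98 bases with Igf2os on the opposite strand, so the Igf2 count is uncertain to that extent.

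Of the receptors, Igf1r was called and Igf2r was not. Igf1r (chromosome 7: 67952827 to 68233668), the signalling receptor, was at 117, 111, 114, 130 and 118 CPM in young replicates 1 to 5 and at 140, 123, 137 and 139 CPM in old replicates 1, 3, 4 and 5. Old replicate 3 overlapped with young replicate 4, and the other old libraries lay above every young one. Igf1r rose by 0.19 ± 0.05 on the log2 scale (edgeR adjusted p = 0.0297), a 1.14-fold higher level. With 1 library at a time removed, the call held in 2 of 9 fits, namely without young replicate 4 and without old replicate 3. In the other 7 the edgeR adjusted p lay between 0.0553 and 0.0808.

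Igf2r (chromosome 17: 12682406 to 12769664), the clearance receptor, was at 57.6, 60.2, 58.7, 55.3 and 59.7 CPM in young replicates 1 to 5, and at 63.7, 63.0, 60.3 and 61.8 CPM in old replicates 1, 3, 4 and 5. The ages did not overlap, though the nearest libraries, old replicate 4 at 60.3 CPM and young replicate 2 at 60.2 CPM, were almost level. The log2 fold change of 0.09 ± 0.04 did not pass (edgeR adjusted p = 0.143). The difference between the fold changes of the 2 receptors was not tested. Per length, the ratio of Igf1r to Igf2r was 1.02 to 1.31 in young and 1.08 to 1.26 in old libraries.

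Among the binding proteins, Igfbp7 (chromosome 5: 77349240 to 77408041) had the largest fold change of the 10 genes. Young replicates 1 to 5 were at 17.7, 21.6, 21.1, 20.3 and 19.1 CPM, and old replicates 1, 3, 4 and 5 were at 27.4, 23.3, 35.5 and 26.5 CPM of Igfbp7. No old library overlapped with a young one, and old replicate 4 was far above the other old libraries. Igfbp7 rose 1.42-fold, by 0.50 ± 0.10 on the log2 scale (edgeR adjusted p = 0.00695). It passed in all 9 fits that left out 1 library, with a log2 fold change of 0.37 without old replicate 4. Summed CPM of 4 blood markers (Hba-a1, Hbb-bs, Hbb-bt and Alas2) was 79.0 to 103 in young and 117 to 372 in old libraries, highest in old replicate 4 and next in old replicate 1, the order seen for Igfbp7. All 4 rose with age. The 7 endothelial markers summed to 336 to 357 CPM in young and 418 to 534 CPM in old libraries, also highest in old replicates 4 and 1. The largest parts of this sum were Slc2a1 (mean 120 CPM in young and 191 CPM in old libraries) and Flt1 (91.2 and 108 CPM). Of the 7 markers, 5 rose (Pecam1, Flt1, Ly6c1, Cdh5 and Slc2a1), whereas Cldn5 and Slco1a4 did not pass. Sums of the other vessel cell markers had another order. The 6 pericyte markers summed to 209 to 232 CPM in young libraries. In old replicates 1, 3, 4 and 5 they summed to 218, 238, 225 and 251 CPM. Their largest parts were Rgs5 (mean 96.5 CPM in young and 102 CPM in old libraries) and Vtn (66.8 and 71.3 CPM). Of the 6, Kcnj8 (log2 fold change 0.48, edgeR adjusted p = 0.0213) and Abcc9 (0.40, edgeR adjusted p = 0.00695) rose without overlap, and 4 were not called. The 4 vascular smooth muscle markers summed to 23.4 to 38.4 CPM in young libraries. In the old replicates they summed to 30.5, 36.3, 29.1 and 35.6 CPM, and none was called. The part of blood and vessel RNA in the Igfbp7 result was not tested. Exons of Igfbp7 share 85 bases with Polr2b on the opposite strand.

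**Figure D2:**
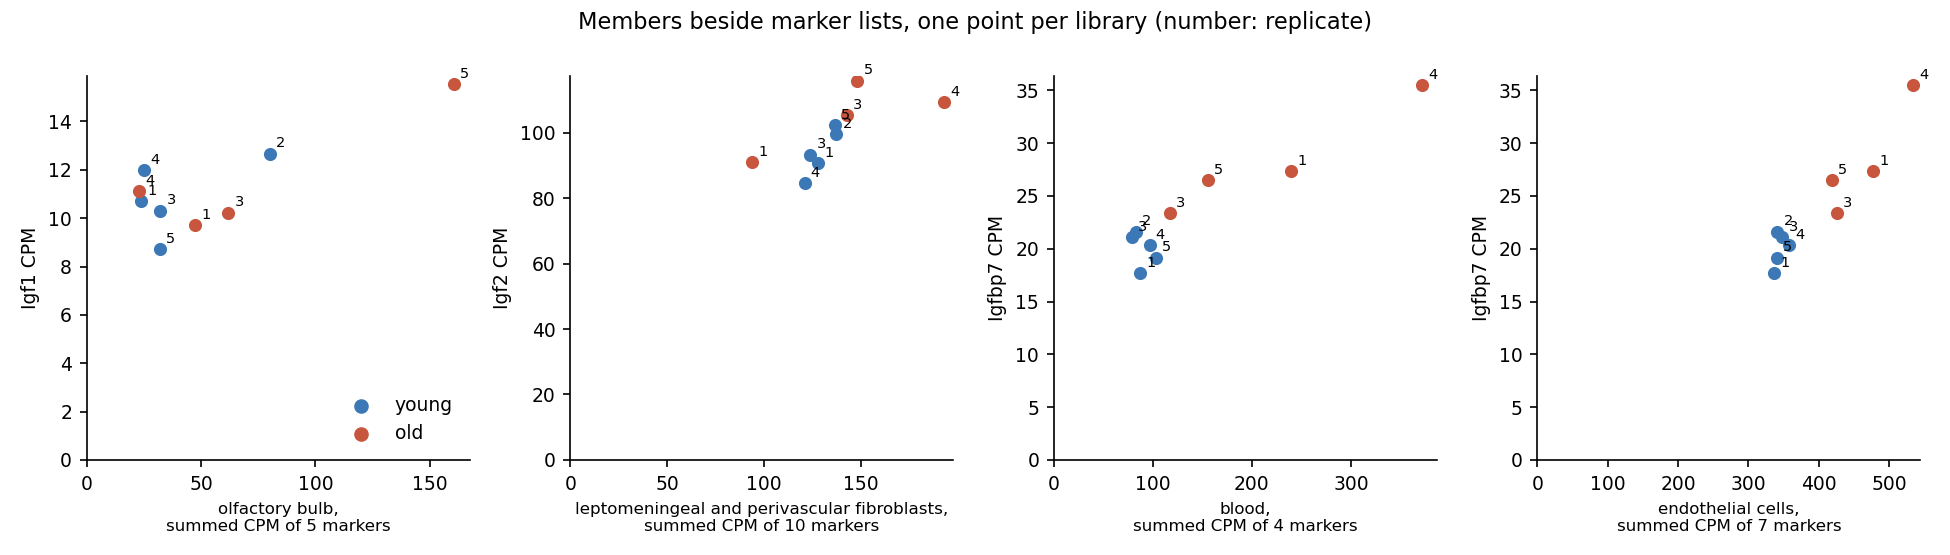
Each point is 1 library with its replicate number, young in blue and old in red; the vertical axes give CPM of Igf1, Igf2 or Igfbp7 and the horizontal axes the summed CPM of a marker list. Igf1 and the olfactory bulb markers were both highest in old replicate 5, old replicate 1 was lowest in fibroblast markers, and Igfbp7, blood and endothelial markers were all highest in old replicate 4.

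Igfbp6 (chromosome 15: 102144362 to 102149511) encodes a binding protein that prefers IGF2. It was at 18.3, 22.1, 20.1, 20.5 and 18.7 CPM in young replicates 1 to 5 and at 23.1, 23.9, 24.2 and 23.8 CPM in old replicates 1, 3, 4 and 5. The old libraries were close together and all above the young ones. Igfbp6 rose by 0.25 ± 0.06 on the log2 scale (edgeR adjusted p = 0.0180), 1.19-fold, and passed in all 9 fits that left out 1 library. With the olfactory bulb markers as a covariate its edgeR adjusted p was 0.0580, at a log2 fold change of 0.22.

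Igfbp4 (chromosome 11: 99041244 to 99054392), a binding protein cleaved by the protease PAPP-A, was at 44.4, 53.8, 38.8, 49.7 and 41.5 CPM in young replicates 1 to 5 and at 58.4, 52.6, 54.7 and 54.1 CPM in old replicates 1, 3, 4 and 5. Young replicate 2 overlapped with old replicate 3, and the other young libraries were below every old one. The rise was 0.26 ± 0.08 on the log2 scale (edgeR adjusted p = 0.0440), 1.20-fold. The call was lost with robust estimation (edgeR adjusted p = 0.0543) and with the olfactory bulb markers as a covariate (log2 fold change 0.22, edgeR adjusted p = 0.118). It held in 2 of the 9 fits that left out 1 library, those without young replicate 2 and without young replicate 4, and in the other 7 the edgeR adjusted p was up to 0.109.

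Igfbp5 (chromosome 1: 72857932 to 72874884), the most abundant of these transcripts and a binding protein held in extracellular matrix, was at 185, 190, 186, 206 and 182 CPM in young replicates 1 to 5. In old replicates 1, 3, 4 and 5 it was at 193, 235, 206 and 221 CPM. Old replicates 3 and 5 lay above every young library, and old replicates 1 and 4 did not. The log2 fold change was 0.17 ± 0.05 and did not pass (edgeR adjusted p = 0.0605), and robust estimation gave an edgeR adjusted p of 0.0497. It passed without young replicate 4 (edgeR adjusted p = 0.0284) and without old replicate 1 (edgeR adjusted p = 0.0188).

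Igfbp2 (chromosome 1: 72824503 to 72852474), a binding protein found in cerebrospinal fluid, lies 5.457 kb from Igfbp5. It was at 42.0, 45.7, 45.2, 40.7 and 46.8 CPM in young replicates 1 to 5 and at 33.5, 46.2, 43.8 and 49.5 CPM in old replicates 1, 3, 4 and 5. Old replicate 1 was the lowest library and old replicate 5 the highest. The log2 fold change was -0.03 ± 0.09 (edgeR adjusted p = 0.878), with a 95% interval of -0.22 to 0.16, and 0.08 without old replicate 1. Igfbp3 (chromosome 11: 7206086 to 7213923), the main carrier of IGFs in serum, was at 9.51, 11.2, 11.1, 11.8 and 9.64 CPM in young replicates 1 to 5 and at 12.8, 9.80, 15.2 and 7.63 CPM in old replicates 1, 3, 4 and 5. Old libraries held both the highest and the lowest value. Its log2 fold change of 0.10 ± 0.16 (edgeR adjusted p = 0.727) was -0.07 without old replicate 4 and 0.25 without old replicate 5 (edgeR adjusted p = 0.251).

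**Figure D3:**
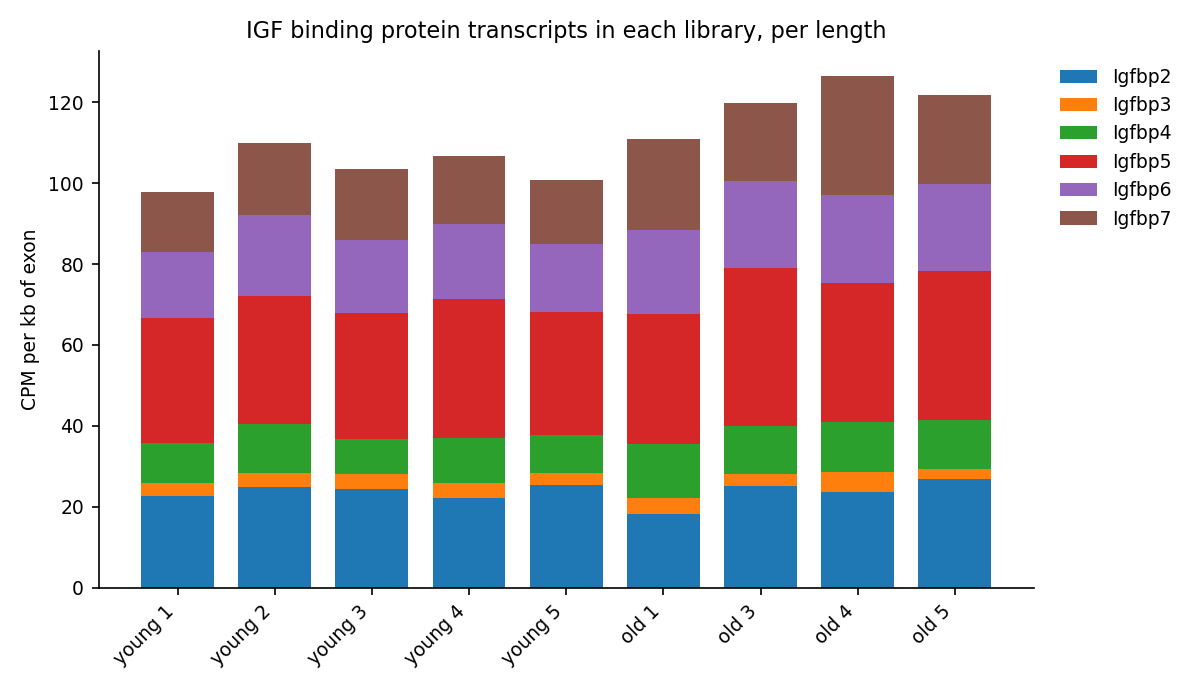
Stacked bars of CPM per kb of exon for Igfbp2 to Igfbp7 in each library, axis from 0. The summed level was 97.7 to 110 in the 5 young and 111 to 126 in the 4 old libraries.

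Summed per length, the 6 binding proteins reached 97.7 to 110 CPM per kb in young and 111 to 126 CPM per kb in old libraries, with no overlap. On the TPM scale the same sums overlapped, 226 to 352 in young and 246 to 296 in old libraries. TPM levels depended on ribosomal RNA-like genes (Gm23935, Gm42418, Gm24270 and Mir6236), which took 12.1% to 47.7% of TPM in a library, and on that scale the median of all genes was shifted by -0.14 (log2) and none of the 10 genes passed. Shares do not carry that scaling: Igfbp2 made up 23.0% ± 1.65 of binding protein transcripts in young and 19.5% ± 2.504 in old libraries, and Igfbp7 15.9% ± 0.700 and 19.4% ± 3.08 (SD, n = 5 and n = 4). Both shares overlapped between the ages, and no test was made of them.

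After the mean of each age was taken out, Igf2 and Igfbp2 varied together over the 9 libraries (Pearson r = 0.91), and so, less closely, did Igfbp3 and Igfbp7 (r = 0.73). These pairs had the highest r values of all pairs of the IGF genes, so they were picked for them. These are descriptions over 9 points that share library and dissection, and none was tested. The genes named next are the top of a search over 14503 genes. Over 9 points, such a search can return r values this high for unrelated genes. Of 14503 genes, those most like Igf1 were Rel, Dapp1, BC005537 and Ddah1 (r = 0.95 to 0.97). For Igf2 they were Ttc28, Dpysl3, Baz1a and Fbln1 (r = 0.95 to 0.97), and for Igfbp2 they were Dpysl3, Aebp1, Erbb4 and Phlpp1 (r = 0.96 to 0.97).

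Of 45 other genes of the pathway, 40 could be tested, and 5 rose, 2 fell and 33 did not pass. Over all genes tested, 6.20% were called higher and 4.83% lower. Their median log2 fold change was 0.00, with 20 above and 20 below 0. Those not tested were Igfbp1, Igfals, Igf2bp1, Ins1 and Ins2, with at most 7 reads in any library. Among proteases and other carriers, Htra1, a serine protease that cleaves binding proteins, rose from 127 ± 6.03 to 153 ± 15.3 CPM (log2 fold change 0.26, edgeR adjusted p = 0.0119). Pappa2, a protease of IGFBP5, was at 3.13 ± 0.684 and 2.10 ± 0.601 CPM and did not pass (edgeR adjusted p = 0.0808).

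Insr, the insulin receptor, rose from 76.1 ± 2.67 to 85.6 ± 0.709 CPM without overlap (log2 fold change 0.17, edgeR adjusted p = 0.00860). The ratio of Igf1r to Insr per length was 1.21 to 1.37 in young and 1.18 to 1.34 in old libraries. Of the adaptors that couple these receptors to signalling, Shc1 (log2 fold change 0.26, edgeR adjusted p = 0.0170) and Irs2 (0.19, edgeR adjusted p = 0.0289) rose. Irs4 had a log2 fold change of -0.53 and did not pass (edgeR adjusted p = 0.142). None of the 4 growth hormone axis genes (Ghr, Stat5a, Stat5b and Socs2) was called.

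Downstream, Foxo1, a transcription factor restrained by AKT, rose from 35.4 ± 1.55 to 42.1 ± 3.46 CPM (log2 fold change 0.25, edgeR adjusted p = 0.0146). Akt2, a kinase of the insulin pathway, fell from 93.5 ± 3.84 to 80.1 ± 4.38 CPM (log2 fold change -0.22, edgeR adjusted p = 0.00656). Pdpk1, the kinase that activates AKT, fell from 160 ± 2.85 to 148 ± 3.98 CPM (log2 fold change -0.11, edgeR adjusted p = 0.0446), a call lost in each of the 9 fits that left out 1 library. Pik3r1 (log2 fold change 0.11), Tsc1 (0.12) and Rptor (-0.07) did not pass. Htra1, Insr, Shc1, Akt2 and Foxo1 passed in all 9 such fits, and Irs2 in 4.

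**Figure D4:**
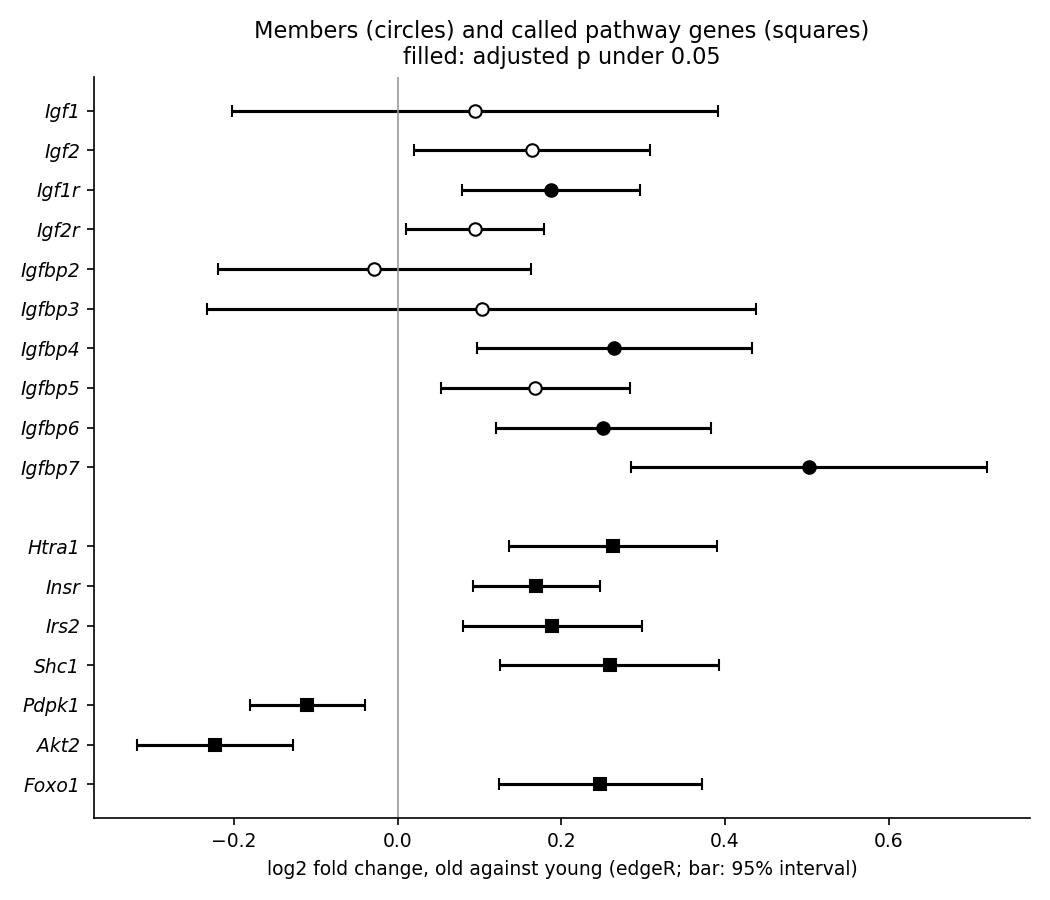
Log2 fold change of old against young with 95% intervals for the 10 IGF genes (circles) and the 7 called pathway genes (squares), filled where the edgeR adjusted p was under 0.05. Igfbp7 lies farthest to the right at 0.50, and Akt2 farthest to the left at -0.22.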

How the data were processed

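Whole-brain RNA of 5 young and 4 old mice was sequenced, 1 library per brain. According to the study's methods, the authors trimmed reads with Trimmomatic, aligned them to GRCm38 with STAR, and counted uniquely mapped exonic reads per gene with featureCounts; the strand setting is not given in the sources used here. The deposited raw counts are not normalized, the deposited normalized counts are a signal scaled per library by the authors for 17994 genes, and the deposited TPM values are scaled per gene length and library total. Each of the 3 tables held 1 column, labelled as a further old replicate, that matched no sample and was not used.

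Counts were tested with edgeR 4.0.16 (R 4.3.3; filterByExpr with a minimum count of 10, TMM factors, quasi-likelihood test with default estimation, Benjamini-Hochberg adjustment over 18492 genes). The default was run first; robust estimation was then taken as the main test, because it gave the counts of called genes of an earlier analysis of these data, and the default was restored because it is the test as planned. The values of the 10 genes were known at each step, and the choice decides whether Igfbp4 or Igfbp5 is called. DESeq2 1.42.0 and limma 3.58.1 served as alternatives, tested on simulated data like edgeR. The 10 genes, the pathway list and the marker lists were chosen with earlier results of these data known. Genes named are the 10, called pathway genes and up to 5 others with the lowest unadjusted p, the 4 most similar genes of Igf1, Igf2 and Igfbp2, and markers. The 5 pathway genes not tested and the 4 growth hormone axis genes are named beyond this rule, after their values were seen. Libraries held 14229259 to 21150439 counts, and the median standard error of a log2 fold change was 0.08. Gene positions are from GENCODE M21 (GRCm38) and promoter windows from RefSeq. No library pair of 1 age looked like a repeat deposit, since their counts differed beyond sampling noise (lowest chi-square over degrees of freedom 4.04). The sample labels state no pairing by replicate number, so no block was used in the main test.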

Additional observations from a re-analysis of the deposited data

How the results depend on the processing

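The 4 called genes did not hold equally. Igfbp6 and Igfbp7 passed in all 9 fits that left out 1 library, and Igf1r and Igfbp4 in 2 of 9 each; over these fits 2 to 5 of the 10 genes, 5 to 7 of the pathway list and 1454 to 1942 genes in all were called. With limma on log2(TPM + 1) and on log2(TPM + 0.1), 0 of the 10 genes and 0 of the pathway list passed, and 594 and 600 genes in all. On log2(TPM + 1) rescaled without 4 ribosomal RNA-like genes, an alternative chosen after seeing the data, 2 of the 10 passed. With olfactory bulb markers as a covariate 2 of the 10 passed, and leaving out young replicate 2 and old replicate 5 together called 3 of the 10, 4 of the pathway list and 1329 genes in all; both were also added after seeing the data. Without signalling downstream of the receptors, the pathway list held 4 called genes. The causes were not tested. Robust estimation, likewise added, called 4 of the 10 but exchanged Igfbp4 for Igfbp5. DESeq2's Wald test and the fit of every gene with a count each called 5 of the 10. No alternative called any of the 10 genes with the fold threshold, and no called value reversed. With the replicate number as a block, 4 of the 10, 5 of the pathway list and 1687 genes in all were called. Deviations from the mean of the age had r = 0.17, -0.12, 0.09 and -0.02 between libraries with the same number. Whether such libraries share more than the number was not tested.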
